A study of Mus musculus with 8 samples.

Results

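Interferon-responsive oligodendrocytes (IRO) are a rare state of the myelin-forming cells of the mouse brain, named for transcripts that interferons induce. In the deposited annotation of the oligodendrocytes, each cell carried a merged cluster name, and the cells named IRO were taken as the members. There were 247 such cells among 15604 annotated oligodendrocytes. Of these, 241 came from the 5 white matter libraries, which held 13146 oligodendrocytes in all, and 6 came from gray matter. The comparison cells of the same white matter libraries were 6212 cells of the cluster Oligo1, 4556 of Oligo2 and 2137 age-related oligodendrocytes (ARO).

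All mice were 24 months old. The 2 wild-type white matter libraries carry the strain label C57BL/6, and the 3 Rag1-/- libraries, from mice that lack the Rag1 recombinase and with it mature T and B cells, carry the label NOD.129S7(B6)-Rag-1tm1Mom/J. The white matter was dissected from optic tract, medial lemniscus and corpus callosum, 2 tissue samples were combined for each library, and living cells were sorted after papain digestion with a transcription blocker present. Messenger RNA was captured at its 3′ end and counted as unique molecular identifiers (UMIs, one for each captured molecule). The study's methods, unlike this label, place the Rag1-/- allele on a C57BL/6J background, and which holds was not settled here. Genotype coincided with the strain label and with the experiment. Per the paper's methods it also coincided with the release of Cell Ranger, the program that made the counts. None of these can be told apart. The Rag1 UMIs do not check the genotype labels, since they are read at the 3′ end and the sources used here do not give the deleted stretch. They were 0 and 0.522 CPM (UMI counts scaled to the same total in each sum) over the oligodendrocytes of the wild-type libraries and 2.22, 2.41 and 1.89 CPM in the Rag1-/- libraries. The labels do not say that the libraries came from separate litters, and p-values measure the spread between these libraries alone. By their titles, Rag1-/- libraries 2 and 3 share a batch, and Rag1-/- library 1 is of another. The 3 are thus not separate batches, and their spread may understate that between batches.

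Interferons are secreted proteins that cells release on infection or damage. Type I interferon binds Ifnar1 and Ifnar2, and interferon gamma, a product of T cells and natural killer cells, binds Ifngr1 and Ifngr2. The receptor-bound Jak kinases phosphorylate Stat proteins, which enter the nucleus and switch on antiviral effectors, immunity-related GTPases and the machinery that cuts proteins into peptides and shows them on MHC class I molecules to CD8+ T cells. Oligodendrocytes carry little MHC class I in the healthy brain.

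The upstream sequences were searched for the letters that this pathway is known to read. Promoters from RefSeq (build GRCm38.p6, 250 bases before to 50 after the annotated start) were searched on both strands for the letters GAAANNGAAA, an interferon-stimulated response element type of motif, and for TTCNNNGAA, a gamma-activated site type of motif. The first was found in 3.99% of 27025 promoters. It was present in 14 of the 21 promoters that matched a list of 29 IRO genes, which the study drew from separate plate-based Smart-seq2 cells. It was in 9 of 10 matched promoters of interferon-induced GTPases, in 25 of 53 of type I interferon-induced genes, in 3 of 13 of class I genes, in 1 of 5 of the immunoproteasome, in 1 of 6 of class I loading genes and in 3 of 19 of signalling genes. Among other lists it was in 3 of 10 matched Oligo1 promoters, in 1 of 20 myelin promoters and in 0 of 11 promoters of oligodendrocyte transcription factors. The 5 windows shown are those, among the 8 matched promoters of the 10 genes that stood out in IRO, that held this motif. The capitals mark the motif, read on either strand, and each window is written 5′ to 3′ along the gene from 200 bases before its start to 50 bases after it.
H2-T23, chr17:36032652-36032901, minus strand: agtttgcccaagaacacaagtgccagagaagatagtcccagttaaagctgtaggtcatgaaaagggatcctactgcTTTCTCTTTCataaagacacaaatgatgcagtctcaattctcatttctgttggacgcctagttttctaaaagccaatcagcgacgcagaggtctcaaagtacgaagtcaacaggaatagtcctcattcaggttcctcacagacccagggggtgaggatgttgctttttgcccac
B2m, chr2:122147487-122147736, plus strand: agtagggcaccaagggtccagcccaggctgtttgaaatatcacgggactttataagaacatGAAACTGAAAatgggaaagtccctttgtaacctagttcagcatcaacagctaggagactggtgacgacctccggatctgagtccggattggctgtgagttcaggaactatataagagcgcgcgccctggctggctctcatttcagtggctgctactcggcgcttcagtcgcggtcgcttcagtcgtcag
Bst2, chr8:71537423-71537672, minus strand: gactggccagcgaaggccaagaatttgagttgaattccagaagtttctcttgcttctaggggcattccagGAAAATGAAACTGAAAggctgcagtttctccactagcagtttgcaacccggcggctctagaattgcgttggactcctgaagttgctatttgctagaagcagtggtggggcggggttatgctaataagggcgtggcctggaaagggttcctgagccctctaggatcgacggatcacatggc
Ifit1, chr19:34640689-34640938, plus strand: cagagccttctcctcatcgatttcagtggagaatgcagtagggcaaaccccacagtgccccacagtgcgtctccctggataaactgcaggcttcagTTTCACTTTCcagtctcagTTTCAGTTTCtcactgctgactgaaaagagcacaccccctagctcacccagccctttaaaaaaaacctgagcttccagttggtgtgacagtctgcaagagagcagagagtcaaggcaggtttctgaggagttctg
Ifit3, chr19:34583329-34583578, plus strand: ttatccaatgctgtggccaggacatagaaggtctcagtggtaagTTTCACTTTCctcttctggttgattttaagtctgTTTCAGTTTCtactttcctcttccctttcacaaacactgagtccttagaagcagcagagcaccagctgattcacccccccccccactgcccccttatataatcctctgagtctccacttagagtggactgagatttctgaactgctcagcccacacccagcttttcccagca
The motif began 139 bases before the start in B2m and 124 bases before it in H2-T23. Bst2 held a pair that overlap, beginning at -130 and -124. Ifit1 held matches at -104 and -85 and Ifit3 at -156 and -122, both on the opposite strand. No match was in the windows of H2-D1, H2-K1 and Psmb8, and the second motif was in those of Psmb8 at -97 and Bst2 at -136. The second motif was in 9.55% of all promoters, in 5 of the 21 of the IRO list and in 6 of the 10 of the GTPases. In Bst2 it overlaps the first motif. A match is a description of letters, not of binding.

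The total of the IRO cells was 339124 and 1378005 UMIs in wild-type libraries 1 and 2, and 365899, 196485 and 342506 UMIs in Rag1-/- libraries 1, 2 and 3, from 29, 123, 39, 17 and 33 cells. Median UMIs per IRO cell were 8840 to 12271, between those of Oligo1 and Oligo2 in each library. No IRO barcode was shared between libraries. Wild-type library 1 stood apart. The 13 genes encoded in mitochondria summed to 31381 CPM in its IRO cells and to 48218 to 54727 CPM in those of the other 4 libraries. In Oligo1 they summed to 39329 CPM, against 52093 to 59054 CPM in the other 4. Whether this bears on the results that follow was not tested. The 10 microglia markers summed to 658 CPM in the IRO cells of wild-type library 1 and to 94.3 to 314 CPM in those of the other 4 libraries. Within a library the sum was alike in IRO and in the other clusters (658 CPM in IRO, 757 in Oligo1 and 688 in Oligo2 of wild-type library 1). C1qa, a microglial complement gene, was seen in 37.9% of the IRO cells of wild-type library 1 and in 39.6% of its Oligo1 cells after each cell was thinned to 2000 UMIs. Among the 10 T cell markers, 9 were listed for both genotypes. Cd2, Cd3d, Cd4 and Trac had no UMI in any IRO cell, and the 9 together had 3 and 4 UMIs in the wild-type and 0 in the Rag1-/- libraries. They summed to 8.85 and 2.90 CPM in wild-type IRO and to 11.7 and 2.59 CPM in wild-type Oligo1. After thinning, Cd3e was seen in 3.45% of the IRO cells of wild-type library 1 and Cd8a in 0.813% of those of wild-type library 2. The part of microglial RNA in the results that follow was not tested, beyond the values without the cells that carry most of it.

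At the level and size set below, the genes higher in IRO than in both Oligo1 and Oligo2 were a short set of interferon-induced and antigen presentation genes. Against 1 cluster at a time more genes differed by 1 or more on the log2 scale, 14 from Oligo1 and 83 from Oligo2. Counts were summed over the IRO, Oligo1 and Oligo2 cells of each library, and log2 differences were taken within a library after adding 10 CPM. Since the authors drew the clusters with these genes, the differences are a description and carry no test. Of 5988 genes with a mean of at least 20 CPM, 10 (0.167%) were higher in IRO than in both clusters in each of the 5 libraries with a mean difference of at least 1 on the log2 scale, and 0 were lower. Among them were Ifi27l2a, H2-T23, B2m, H2-D1, Bst2, H2-K1, Ifit1, Ifit3 and Psmb8, and all 10 are on the list of 29. Lists named below with 0 counted genes are thus near the share of all genes. The median difference of all genes was -0.02 against Oligo1 and -0.03 against Oligo2. With no minimum size, 125 genes (2.09%) were higher and 118 (1.97%) lower in all 5 libraries, a near equal number both ways. How many genes would agree in sign by chance was not tested. At a difference of at least 0.5, 20 genes (0.334%) were higher and 9 (0.15%) lower.

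**Figure D1:**
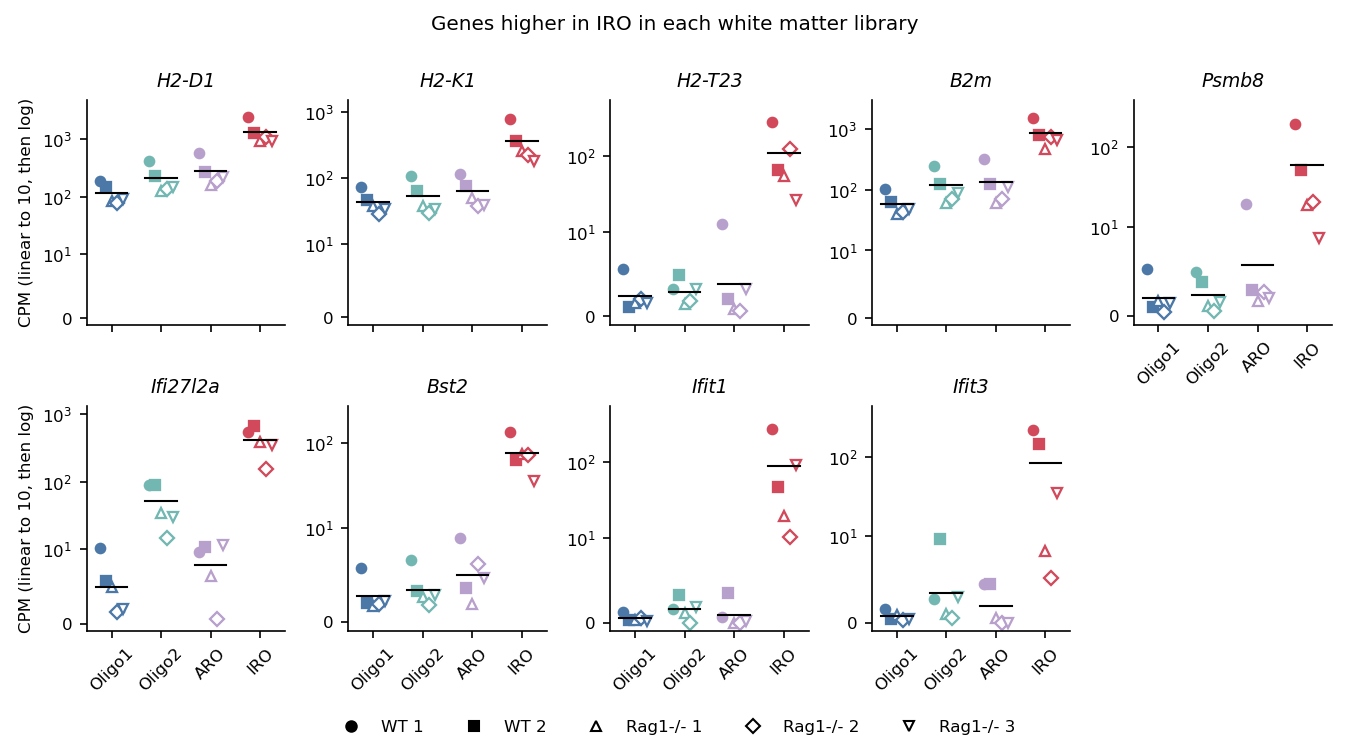
CPM of 9 genes that stood out in IRO, in each of the 5 white matter libraries and 4 oligodendrocyte clusters. Filled symbols are wild-type, open symbols Rag1-/-, and the bar is the mean of 5 libraries; the axis is linear to 10 CPM and logarithmic above. In each panel the 5 IRO values lie above the Oligo1 and Oligo2 values of the same library.

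The MHC class I molecule itself was among the set. H2-D1 (chr17:35262730-35267499), a classical class I heavy chain that presents peptides to CD8+ T cells, was at 2427 and 1282 CPM in the IRO of wild-type libraries 1 and 2, and at 913, 1094 and 940.1 CPM in Rag1-/- libraries 1, 2 and 3. In the same libraries Oligo1 held 188, 145, 82.6, 77 and 90.6 CPM. No library's IRO overlapped any Oligo1 or Oligo2 value, and the mean log2 difference was 3.38 ± 0.26 (SD, n = 5 libraries) from Oligo1 and 2.64 ± 0.19 from Oligo2. B2m (chr2:122147686-122153083), the light chain that every class I molecule needs, was at 1522, 803, 473, 748 and 657 CPM in IRO and at 102, 62.9, 39.7, 42.7 and 48.1 CPM in Oligo1. Its differences were 3.58 ± 0.23 and 2.79 ± 0.26, and its IRO values were again above every Oligo1 and Oligo2 value.

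H2-K1 (chr17:33996017-34000347), another classical heavy chain, was at 784, 365, 257, 224 and 181 CPM in IRO and at 74.8, 46.4, 37.8, 28.8 and 33.7 CPM in Oligo1. H2-T23 (chr17:36029773-36032855), which encodes the non-classical Qa-1 molecule, a ligand of the inhibitory NKG2A receptor, was at 277, 65.3, 54.7, 122 and 26.3 CPM in IRO against 1.08 to 5.66 CPM in Oligo1. The differences from Oligo1 were 2.63 ± 0.40 and 2.91 ± 0.97 (SD, n = 5 libraries). The wider spread of H2-T23 came with fewer molecules, from 94 UMIs in wild-type library 1 to 9 in Rag1-/- library 3. Of the 16 genes on the class I list, 4 passed 20 CPM and were counted as higher, with a median difference of 3.14 from Oligo1. Since the minimum was set on the mean of IRO, Oligo1 and Oligo2, H2-T23, and likewise Bst2, Ifit1, Ifit3 and Psmb8, passed through their level in IRO alone, so that these tallies over genes that passed are partly set by the minimum and support nothing. At 5 CPM, where 17 of 9110 genes (0.187%) were counted as higher, H2-T22 joined them with a difference of 1.48 ± 0.48 from Oligo1. Reads of class I heavy chains can be split between near-identical copies, which leaves the share of each copy uncertain.

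Of the 9 genes on the list that load class I molecules, 4 passed 20 CPM and 0 were counted, with a median difference of 0.08 from Oligo1. Tapbp, which holds the empty molecule at the peptide transporter, was higher in IRO in all 5 libraries, by 0.92 ± 0.48 and 0.79 ± 0.35, and so stayed below the size set for a count. Tap1, a subunit of that transporter, passed only 5 CPM and was at 56 CPM in wild-type library 1 and 2.92 to 10.2 CPM in the other 4. The general chaperones Calr, Canx and Pdia3, which every cell uses to fold proteins, differed from Oligo1 by 0.10, -0.03 and 0.06.

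Class II genes, which present peptides to CD4+ T cells, were low. None of the 10 on the list passed 5 CPM. Together they had 13, 7, 3, 1 and 0 UMIs in the IRO of the 5 libraries. That is 38.3 CPM in wild-type library 1, where Oligo1 held 41.7 CPM, and 0 to 8.2 CPM in the other 4. In wild-type library 2, the deepest one, Cd74 had 1 UMI and H2-Ab1 had 2 among 1378005.

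The immunoproteasome is the form of the proteasome that trims peptides to fit class I molecules. Of its 5 genes on the list, 3 passed 20 CPM and 1 was counted as higher. Psmb8 (chr17:34197721-34201454), a catalytic subunit, was at 198, 51.5, 19.1, 20.4 and 8.76 CPM in IRO and at 5.26 CPM or less in Oligo1, a difference of 1.96 ± 1.19 (SD, n = 5 libraries). Its lowest IRO value stood on 3 UMIs. The regulators Psme1 and Psme2 were higher by 0.69 and 0.54 and were not counted. Of the 14 subunits of the constitutive proteasome all passed 20 CPM, 0 were counted in either direction and the median difference was 0.00 from both clusters.

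Of the 67 type I interferon-induced genes on the list, 10 passed 20 CPM and 4 were counted as higher. Ifi27l2a (chr12:103442167-103443680), a small mitochondrial protein strongly induced by interferon, was at 543, 665, 383, 153 and 350.4 CPM in IRO. It was at 10.5, 5.66, 4.86, 1.61 and 2.0 CPM in Oligo1 and at 90.2, 89.0, 34.8, 14.7 and 29.9 CPM in Oligo2 of the same libraries. Its difference was thus larger from Oligo1 (4.72 ± 0.59) than from Oligo2 (2.85 ± 0.30). Bst2 (chr8:71534255-71537456), the tetherin that holds budding virions on the cell surface, was at 136, 62.4, 73.8, 71.3 and 35.0 CPM in IRO against 5.66 CPM or less in Oligo1.

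The Ifit proteins, which bind foreign RNA and block its translation, varied most between libraries. Ifit1 (chr19:34640871-34650009) was at 268, 46.4, 19.1, 10.2 and 90.5 CPM in IRO against 1.21 CPM or less in Oligo1. Ifit3 (chr19:34583531-34588731) was at 227, 147, 8.2, 5.09 and 35.0 CPM against 1.62 CPM or less. Their differences from Oligo1, 2.56 ± 1.47 and 2.34 ± 1.75 (SD, n = 5 libraries), had a larger SD than any other of the 10 genes. The sizes and their order depend on the added 10 CPM. With 1 CPM added, Ifit1 and Ifit3 were at 5.00 and 4.48, H2-T23 at 4.70 and Bst2 at 4.34, above B2m (3.78) and H2-D1 (3.49), and with 50 CPM added Ifit1 and Ifit3 were at 1.15 and 1.09. Ifi27, a relative of Ifi27l2a, was higher in every library (1.21 ± 0.43 from Oligo1, 0.93 ± 0.24 from Oligo2) but missed the size set against Oligo2. Xaf1, a gene that promotes cell death under interferon, was higher by 0.57 from Oligo1 and 1.22 from Oligo2. Isg15, a ubiquitin-like protein and a textbook interferon target, did not pass 5 CPM and had 0 UMIs in Rag1-/- libraries 1 and 3.

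None of the 17 interferon-induced GTPases, which attack the vacuoles of intracellular microbes, passed 20 CPM. At 5 CPM, 5 passed and 2 were counted as higher. Igtp was at 142, 51.5, 16.4, 10.2 and 23.4 CPM and Irgm1 at 109.1, 35.6, 13.7, 10.2 and 32.1 CPM in the IRO of the 5 libraries. Mean levels in Oligo1 and Oligo2 were 1.29 and 3.81 CPM for Igtp and 3.49 and 4.76 CPM for Irgm1. Both genes thus passed 5 CPM through IRO alone, and their count supports nothing.

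The 11 genes of the signalling list that passed 20 CPM had median differences of 0.14 from Oligo1 and 0.07 from Oligo2. Stat2, a factor of the type I pathway, was higher than in Oligo1 by 0.91 ± 0.48 (SD, n = 5 libraries) and was not counted. The transcription factors Irf7 and Irf9, at 5 CPM, were counted with differences from Oligo1 of 1.90 and 1.38, while Irf2, Irf3 and Stat3 were at 0.14, 0.21 and 0.52 and were not counted. Irf7 had a mean of 0.446 CPM in Oligo1 and 1.46 CPM in Oligo2. It passed 5 CPM through IRO alone, so that its count supports nothing. The receptor chains Ifnar1, Ifnar2 and Ifngr1 differed from Oligo1 by 0.11, 0.23 and -0.04, and the kinases Jak1 and Jak2 by 0.02 and 0.09. The sensors of foreign nucleic acid stayed near 0 as a list, with medians of -0.03 and 0.09 over 4 genes. Among them Ddx58, the RNA sensor RIG-I, was higher by 0.84 from Oligo1 at 5 CPM.

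**Figure D2:**
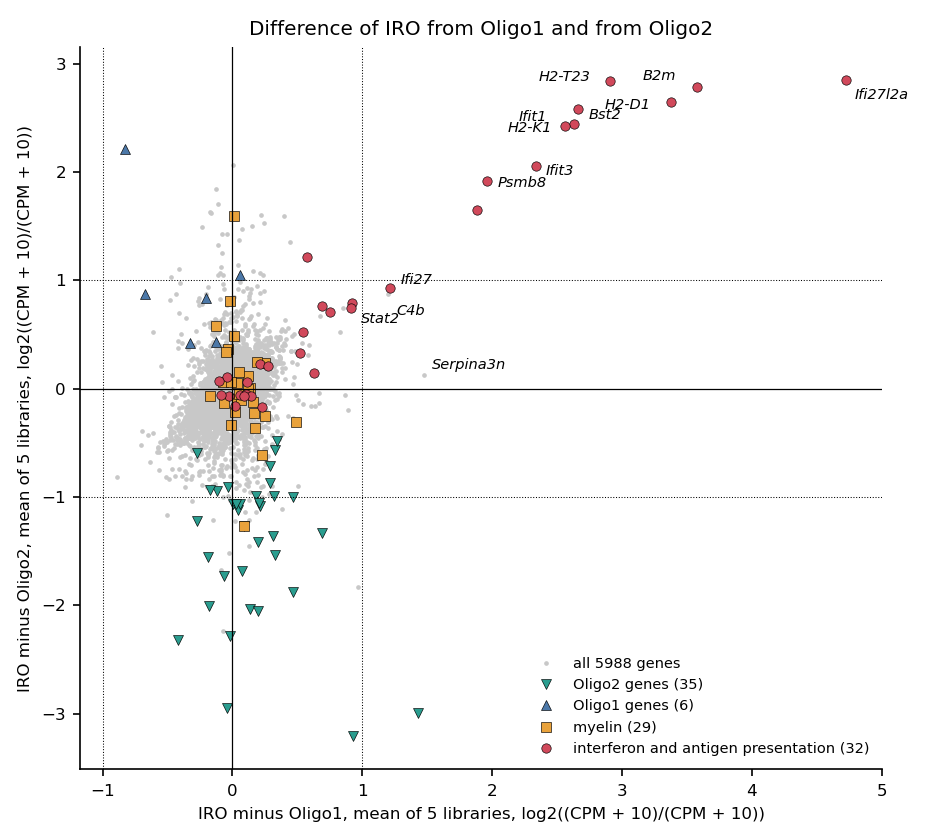
Mean log2 difference of IRO from Oligo1 (horizontal) and from Oligo2 (vertical) over 5 libraries for 5988 genes, with gene lists coloured and dotted lines at 1 and -1. The 10 counted genes lie alone in the upper right, the 35 Oligo2 genes hang below 0, and the myelin genes spread around 0 with Opalin and Anln at the ends.

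Outside the interferon lists, C4b had the largest smaller difference from the 2 clusters at 20 CPM, and its level was near that of ARO. C4b, a complement component, was at 1982, 2135, 1257, 1191 and 1562 CPM in IRO and at 873, 1131, 449, 534 and 624 CPM in Oligo1, a difference of 1.20 ± 0.21 from Oligo1 and 0.87 ± 0.22 from Oligo2. ARO held 1229 to 2484 CPM, and the mean difference of IRO from ARO was -0.21. Serpina3n, a secreted protease inhibitor raised in reactive glia, was higher than in Oligo1 by 1.47 ± 0.35, differed from Oligo2 by 0.12 ± 0.41, and was lower than in ARO by 1.67 on the log2 scale. Over the 31 genes of the ARO list that passed 20 CPM, the median was 0.27 from Oligo1, 0.17 from Oligo2 and -0.48 from ARO. At 5 CPM, Snx10, an endosomal sorting gene of the ARO list, was the gene outside the interferon and class I lists with the largest smaller difference (1.22), and its IRO level was below that of ARO by 0.69.

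Of the 24 genes on the list of T cell ligands and chemokines, 3 passed 20 CPM and 0 were counted. Cd274, the inhibitory ligand PD-L1, was counted at 5 CPM with a difference of 1.06 ± 0.95, but rested on 56 CPM in wild-type library 1 and 2.73 to 11.7 CPM in the other 4. It passed 5 CPM through IRO alone, with means of 0.394 CPM in Oligo1 and 0.435 CPM in Oligo2. Cxcl10, a chemokine that draws T cells, had 1 UMI in all IRO cells. Ccl5, a chemokine that T cells and natural killer cells also make, had 5 and 7 UMIs in the wild-type IRO and 0 in each Rag1-/- library. By the floor of 3 counts, 0 allows 8.2 to 15.3 CPM there. Il33, an alarmin that oligodendrocytes release on injury, was at 1588 to 1938 CPM in IRO, higher than in Oligo1 by 0.21 ± 0.16 and than in Oligo2 by 0.88 ± 0.08, and below ARO by 0.20.

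The authors had named these cells oligodendrocytes beforehand, so the levels of oligodendrocyte genes in them are a description. All 29 myelin genes passed 20 CPM, 0 were counted in either direction, and the median difference was 0.05 from Oligo1 and -0.01 from Oligo2. Of all 5988 genes, 10 (0.167%) were counted as higher and 0 as lower. Counts of 0 here and for the transcription factors are near that share. Mbp, the myelin basic protein that compacts the sheath, differed by -0.07 from Oligo1 and 0.06 from Oligo2. Of the transcription factors that hold oligodendrocyte identity, 11 passed and 0 were counted. Sox10 differed from Oligo1 by -0.02 and Olig1 by -0.04, while Tcf7l2 was lower in all 5 libraries, by 0.61 ± 0.40 and 0.41 ± 0.41. Cdkn1a, the cell cycle inhibitor p21, was lower than in both clusters in all 5 libraries (-0.89 ± 1.02 from Oligo1), and its level in Oligo1 was 599 CPM in wild-type library 1 and 3.41 to 10 CPM in the other 4.

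In the genes that separate the 2 main clusters, IRO lay near Oligo1 for the Oligo2 list and between both for the Oligo1 list. The 6 Oligo1 genes that passed 20 CPM had a median difference of -0.27 from Oligo1 and 0.86 from Oligo2, and the whole list summed to 5801 to 11214 CPM in IRO, 9869 to 25496 in Oligo1 and 1479.7 to 3357 in Oligo2. The 35 Oligo2 genes that passed 20 CPM had a median difference of 0.13 from Oligo1 and -1.22 from Oligo2, and each of them was lower in IRO than in Oligo2 on average. S100b, a calcium-binding protein, was lower than in Oligo2 by 3.21 on the log2 scale and higher than in Oligo1 by 0.93. Klk6, a secreted protease, was at 35.6 to 98.7 CPM in IRO, above the 10.5 to 23.6 CPM of Oligo1 and under the 444 to 756 CPM of Oligo2. Ptgds, the prostaglandin D2 synthase that leads Oligo1, was at 10256, 5934, 5723, 7761 and 5474 CPM in IRO, below Oligo1 by 0.83 and above Oligo2 by 2.21. No gene was lower than in Oligo1 by 1 or more, while 42 genes were lower than in Oligo2 by that much. Besides the 10 counted genes, 4 were higher than in Oligo1 and 31 higher than in Oligo2 by 1 or more.

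Genes of the set were spread over the cells in different ways. An H2-D1 UMI was found in 29 of 29, 122 of 123, 38 of 39, 17 of 17 and 32 of 33 IRO cells of the 5 libraries, and the highest cell of each library together held 6.76% of all H2-D1 UMIs. An Ifit3 UMI was found in 5 of 29, 14 of 123, 2 of 39, 1 of 17 and 1 of 33 IRO cells. In wild-type library 1, 64 of its 77 Ifit3 UMIs were in 1 cell. For Ifit1 the highest cells held 64 of 91 UMIs in wild-type library 1 and 31 of 31 in Rag1-/- library 3, and for Ifit2 112 of 158 UMIs in wild-type library 2 were in 1 cell. H2-T23 was concentrated too, with a UMI in 18.3% of all IRO cells and 24 of 24 UMIs of Rag1-/- library 2 in 1 cell. Ifi27 and Xaf1, both interferon-induced, were seen in 93.4% and 79.7% of IRO cells. The share of Ifit UMIs in the highest cell was not alike in every library. The highest cell of wild-type library 2 held 37.6% of its Ifit3 and 25% of its Ifit1 UMIs. The 3 highest cells of that library held 83.2% and 53.1%. For Ifit2 the highest cell held 2 of 11 UMIs in Rag1-/- library 1 and 2 of 9 in Rag1-/- library 3, too few to show a spread.

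After each cell was thinned to 2000 UMIs, which left out no IRO cell, H2-D1 was seen in 93.1%, 83.7%, 66.7%, 82.4% and 75.8% of IRO cells and in 12.6% to 22.5% of Oligo1 cells. Any of B2m, H2-D1, H2-K1 and H2-T23 was seen in 89.7% to 100% of IRO cells and in 23% to 41.4% of Oligo1 cells. Ifi27l2a was seen in 24.1%, 31.7%, 20.5%, 11.8% and 18.2% of IRO cells and in at most 1.32% of Oligo1 cells. For C1qa, which oligodendrocytes should lack, the shares were 0.813% to 37.9% in IRO and 2.72% to 39.6% in Oligo1, highest in wild-type library 1 in both. Without the 1 IRO cell of each library with the highest interferon-induced share, H2-D1, B2m, H2-K1 and Ifi27l2a were still counted as higher, and Bst2, H2-T23, Ifit1, Ifit3 and Psmb8 were not, with differences from Oligo1 of 1.58, 1.79, 1.56, 1.23 and 1.28. Without the top 10% of IRO cells, Ifi27l2a was not counted either, with mean differences of 2.90 and 1.03. Without wild-type library 1, the means of Ifit1, Ifit3 and Psmb8 fell below 20 CPM and they were not counted, with differences from Oligo1 of 2.04, 1.83 and 1.51.

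**Figure D3:**
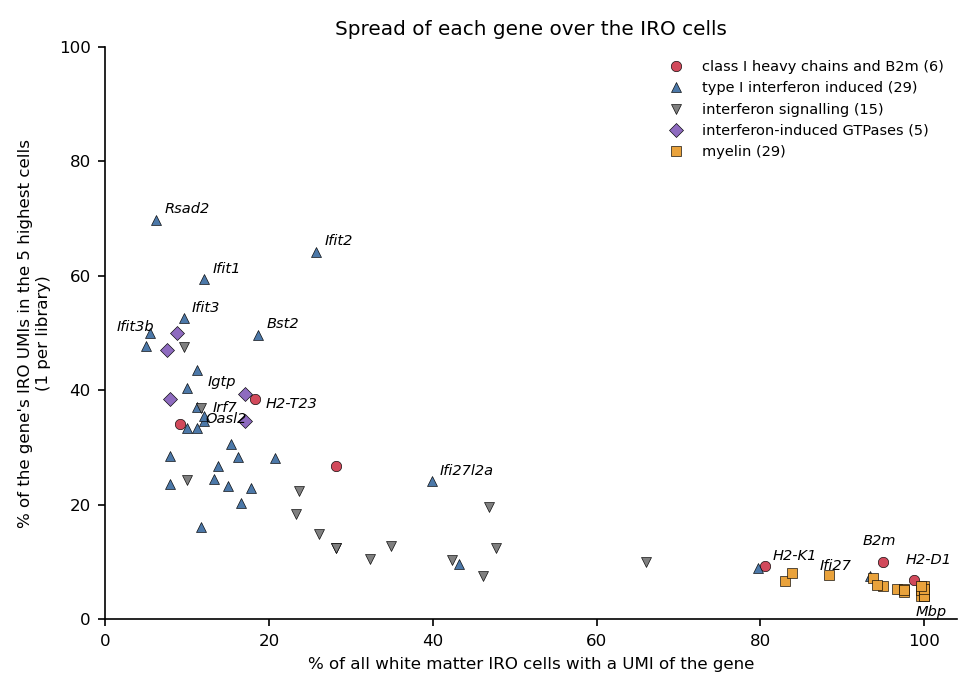
Share of the 241 IRO cells with a UMI of a gene (horizontal, percent) against the share of the gene's IRO UMIs in the 5 highest cells, 1 per library (vertical, percent), for list genes with 30 or more UMIs. H2-D1, B2m and H2-K1 sit with the myelin genes at the lower right, while Ifit1, Ifit2, Ifit3 and Rsad2 sit at the upper left.

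Per cell, the 28 genes of the IRO list that were in the table took a median of 0.421%, 0.301%, 0.216%, 0.202% and 0.203% of the UMIs of IRO cells in the 5 libraries, and 0.0307% to 0.0507% in Oligo1. The range was continuous. Of the 12905 other oligodendrocytes of white matter, 162 (1.26%) were at or above the IRO median of their own library. Oligo2 reached that level in 1.37% to 3.88% of its cells and Oligo1 in 0.219% to 1.31%. The highest Oligo2 cell of wild-type library 2 reached 3.65%, and the highest IRO cell of that library 3.91%. Cells at that level were thus also found outside the cluster named IRO. Outside IRO there were 49 such cells in Rag1-/- library 3, at a cut of 0.203%, and 62 in wild-type library 2, at 0.301%. Since the cut is each library's own median, these numbers do not compare the genotypes. The counts of cells that follow cover the named cluster alone.

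**Figure D4:**
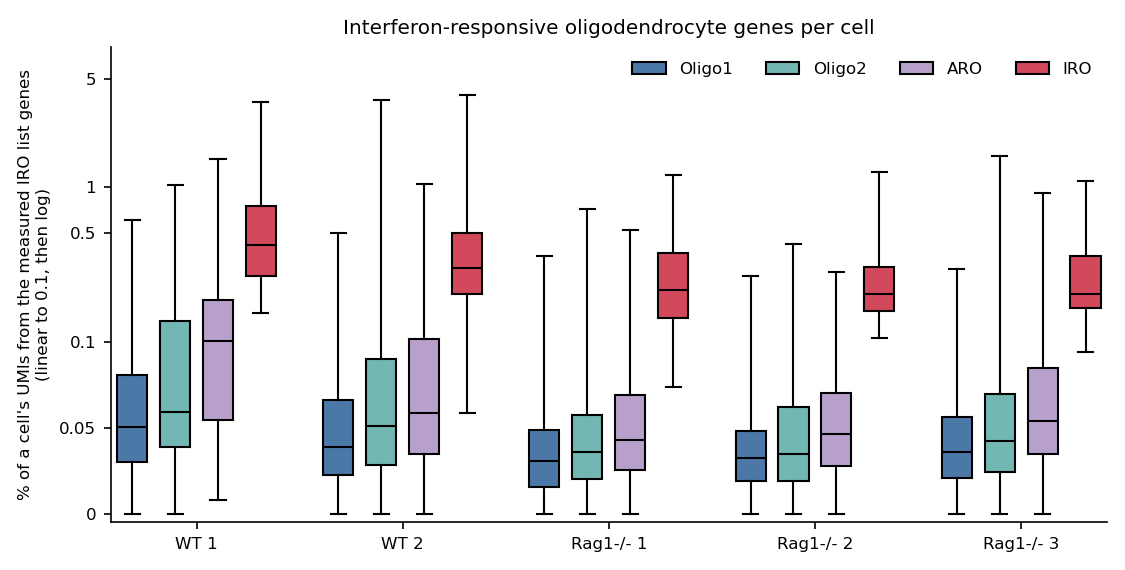
Percent of each cell's UMIs from the 28 measured genes of the IRO list by library and cluster. Boxes span the quartiles with the median as a line, whiskers reach the lowest and highest cell, and the axis is linear to 0.1% and logarithmic above; each IRO box lies above the boxes of the other clusters of its library, while the whiskers overlap.

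In white matter, 29 of 494 and 123 of 4106 oligodendrocytes of the wild-type libraries were IRO, or 5.87% and 2.996%. In the Rag1-/- libraries they made up 1.28% (39 of 3055, exact 95% interval 0.909 to 1.74), 1.04% (17 of 1632, 0.608 to 1.66) and 0.855% (33 of 3859, 0.589 to 1.20). The wild-type and Rag1-/- values did not overlap. Among IRO, Oligo1 and Oligo2 cells alone the shares were 7.49% and 3.82% against 1.48%, 1.12% and 1.02%. The shares were not tested, since the clusters were drawn with genes whose levels may differ between the genotypes, and the intervals cover counting error only.

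Within IRO, the genotypes were compared on the sums of 2 wild-type and 3 Rag1-/- libraries with edgeR's two-sided quasi-likelihood test, adjusted by Benjamini-Hochberg over 5418 genes. The authors drew the cluster with interferon-induced genes, some of which are tested here. Their fold changes and p-values therefore depend on where the border of IRO fell in each genotype. The same limit holds for the interaction further below. Where 1 wild-type library is left out, the spread comes from the Rag1-/- libraries alone and the lone wild-type library is assumed to vary like them. A cluster sum by itself does not tell fewer expressing cells from less RNA per cell. After thinning, H2-K1 was seen in 58.6% and 35.8% of wild-type and in 41.0%, 41.2% and 21.2% of Rag1-/- IRO cells, which overlap. Ifit3 was seen in 10.3% and 4.88% against 2.56%, 0% and 0%. These shares were not tested. The adjusted p was under 0.05 for 43 genes (0.794%), of which 14 (0.258%) were higher and 29 (0.535%) lower in wild-type. Of the 148 genes on the interferon and antigen presentation lists, 43 were tested, 7 were higher in wild-type and 0 lower, and the median log2 fold change was 0.71 against -0.02 over all genes tested. The low-count filter can keep a gene through the wild-type libraries alone, as for Ifit3b with 25 and 62 UMIs against 0, 0 and 1. Ifit3, Ifit2, Oasl2, Psmb8 and Igtp were also low in Rag1-/- IRO and would not have passed it on those libraries alone. Their p-values below carry this limit, while H2-K1 was well counted in every library. These tallies over genes tested are thus partly set by the filter and support nothing.

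**Figure D5:**
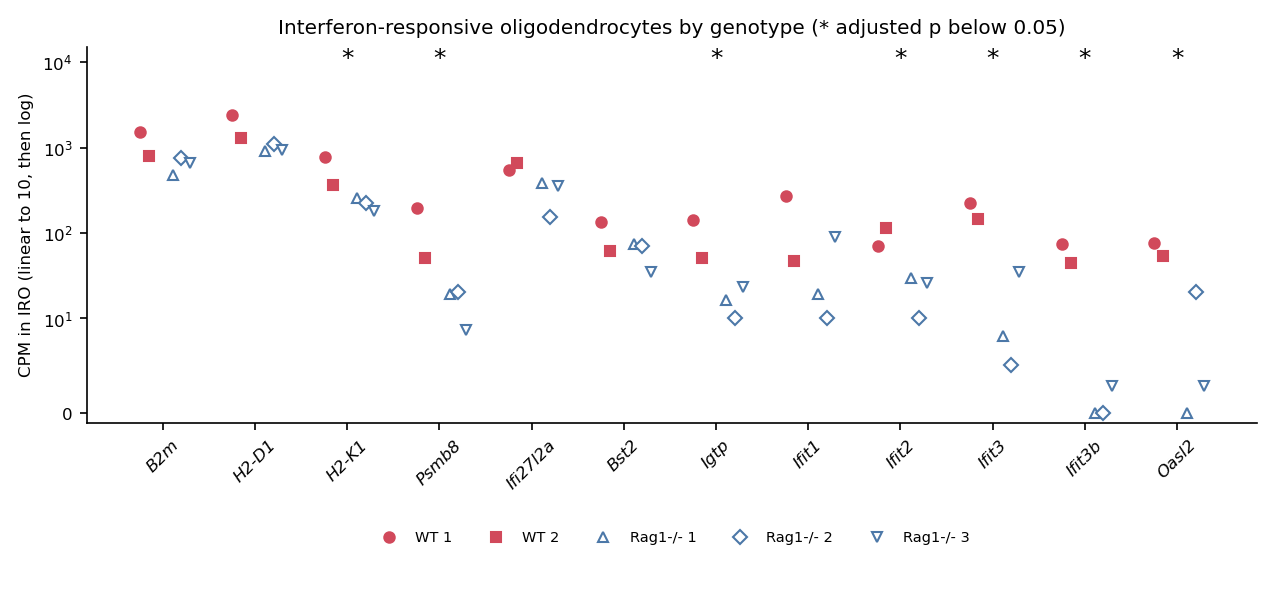
CPM in IRO for 12 interferon-induced and class I genes in each wild-type (red, filled) and Rag1-/- (blue, open) library, on an axis linear to 10 CPM and logarithmic above, with a star where the adjusted p was under 0.05. Stars stand over Ifit2, Ifit3, Ifit3b, Oasl2, H2-K1, Psmb8 and Igtp, while B2m, H2-D1 and Bst2 carry no star.

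Among the effectors, Ifit3 had 77 and 202 UMIs in the wild-type libraries and 3, 1 and 12 in the Rag1-/- libraries, and its 227 and 147 CPM in wild-type lay above the highest Rag1-/- value of 35.0 CPM. The log2 fold change was 3.27 ± 0.41 (SE) with an adjusted p of 9.04e-05 by edgeR. Its near-identical neighbour Ifit3b, with which it may share reads, had 25 and 62 UMIs against 0, 0 and 1. Per UMI this is 45.9-fold higher in wild-type (95% counting interval 8.01 to 1831), with an adjusted p of 0.000564 by edgeR. Oasl2, an oligoadenylate synthetase-like protein that binds double-stranded RNA, had 26 and 74 UMIs against 0, 4 and 1 (3.34 ± 0.63, edgeR adjusted p = 0.00763). That call was lost with DESeq2 (3.16, adjusted p = 1.00) and without Rag1-/- library 3 (3.0, adjusted p = 0.130), at fold changes close to the reported one. Ifit2 had 24 and 158 UMIs against 11, 2 and 9 (1.96 ± 0.35, edgeR adjusted p = 0.00548), and without the 1 highest IRO cell of each library the change was 0.44 (adjusted p = 0.991). Ifit2 was also lost without wild-type library 2 (1.5, adjusted p = 0.398) and without Rag1-/- library 2 or 3 (1.74 and 2.06, adjusted p = 0.0582 and 0.0584). Ifit3 alone of these kept its call in each alternative in which it was tested. It was not tested without the 10% of IRO cells with the highest interferon-induced share, where too few UMIs were left. Its call thus rests on few cells. In wild-type library 1, 64 of 77 Ifit3 UMIs were in 1 cell, and the 3 highest cells of wild-type library 2 held 83.2% of its 202.

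H2-K1 was the class I gene that passed the test. Class I genes differ in sequence between mouse strains, and for all of them genotype and the unsettled strain label cannot be told apart. It was at 784 and 365 CPM in wild-type and at 257, 224 and 181 CPM in Rag1-/- IRO (1.27 ± 0.26, edgeR adjusted p = 0.0219). The groups did not overlap, yet without wild-type library 1 the change was 0.66 (adjusted p = 0.720), and without Rag1-/- library 2 or 3 it was 1.30 and 1.15 (adjusted p = 0.226 and 0.260). H2-D1 differed by 0.85 ± 0.21 and B2m by 0.82 ± 0.24, with adjusted p of 0.0913 and 0.238 by edgeR. Without wild-type library 2, with the microglia-rich library 1 alone against the Rag1-/- libraries, the 2 became 1.26 and 1.25 with adjusted p of 0.000254 and 0.00231, and without library 1 they were 0.32 and 0.30. Psmb8 (2.71 ± 0.58, edgeR adjusted p = 0.0254) and Igtp (2.19 ± 0.49, 0.0362) were higher in wild-type and were both lost without wild-type library 1 (1.65 and 1.48, adjusted p = 0.235 and 0.376) and without each of the 3 Rag1-/- libraries. Without 1 Rag1-/- library Psmb8 was at 2.37 to 2.88 and Igtp at 2.03 to 2.5, with adjusted p from 0.0896 to 0.370. In 1 fit over the sums of all 3 clusters, H2-K1, Psmb8, Igtp, Oasl2 and Ifit3b had adjusted p of 0.119, 0.199, 0.323, 0.119 and 0.153.

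Other genes of the set missed the threshold. Ifi27l2a was at 543 and 665 CPM in wild-type and at 383, 153 and 350.4 CPM in Rag1-/- IRO (0.93 ± 0.24, edgeR adjusted p = 0.117). Without Rag1-/- library 1 it passed (1.12, adjusted p = 0.0231). Bst2 (0.53 ± 0.36) and Ifit1 (1.52 ± 0.66) had adjusted p of 0.996 and 0.908 by edgeR.

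The other 36 genes were on none of these lists, and 33 of them were called the same way in both Oligo1 and Oligo2, where 0.807% and 0.829% of genes were called. Of the 7 interferon and class I genes, 0 were called in Oligo1, where 3 were not tested, and 1, H2-K1, was called in Oligo2, where 1 was not tested. Fold changes in Oligo2 that were not called were 2.12 for Ifit3, 1.82 for Psmb8 and 1.75 for Igtp on the log2 scale. Mrpl53, a mitochondrial ribosomal protein, had 0 UMIs in wild-type and 46, 25 and 40 in the Rag1-/- libraries, a level at least 70.2-fold higher. Atp6v0c, a subunit of the vacuolar proton pump, had 2 UMIs in wild-type and 529 in Rag1-/-, 502-fold higher per UMI (interval 138 to 4155). Ptp4a1, a phosphatase, went the other way with 807 UMIs against 2 (ratio 213, interval 58.7 to 1759). Such near absence in all 3 clusters of 1 genotype moved together with the strain label, the experiment and the Cell Ranger release, which cannot be told apart from genotype. Hbb-bs, a haemoglobin chain of red blood cells, had 0 UMIs in the wild-type IRO and 15, 6 and 4 in the Rag1-/- libraries. The 5 blood markers summed to 0 CPM in wild-type and to 11.7 to 79.3 CPM in Rag1-/- IRO. The natural killer and cytotoxic markers summed to 23.6 and 5.08 CPM in wild-type IRO and to 0 in the 3 Rag1-/- libraries, with 17.8 and 3.19 CPM in wild-type Oligo1. By the floor of 3 counts, 0 allows 8.2, 15.3 and 8.76 CPM in the IRO of Rag1-/- libraries 1, 2 and 3. Oligo1 of these libraries held 1.26, 0.663 and 1.42 CPM. The part of the blood and cytotoxic markers in the genotype differences was not tested.

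Whether a genotype difference was larger in IRO than in its neighbours was tested as an interaction, the genotype difference in IRO minus the mean of those in Oligo1 and Oligo2 of the same libraries. By edgeR, 2 of 12040 genes (0.0166%) passed, and 585 had an unadjusted p under 0.05. Ifit2 differed by 2.17 ± 0.31 on the log2 scale (edgeR, adjusted p = 5.97e-06). It was at 115 CPM in IRO and 18.7 and 37.7 CPM in Oligo1 and Oligo2 of wild-type library 2, and at 10.2 to 30.1 CPM in the Rag1-/- IRO. The difference fell to 0.53 (adjusted p = 0.952) without the 1 highest IRO cell of each library. Apod, a lipid carrier of ageing oligodendrocytes, differed by -0.71 (edgeR, adjusted p = 0.00120). It was at 5025 CPM in IRO and 8667 CPM in Oligo1 of wild-type library 1, the one library where IRO was below Oligo1, and without that library the difference was -0.21 (adjusted p = 0.535).

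For the class I genes and Ifi27l2a no interaction passed the test. On simulated data this test called 14 of 100 genes changed 2-fold and 83 of 100 changed 4-fold. A missing call thus does not show that the differences were alike. H2-D1 differed by -0.23 ± 0.09, B2m by -0.19 ± 0.10, H2-K1 by 0.21 ± 0.14 and Ifi27l2a by -0.36 ± 0.17, each with an adjusted p of 0.957 by edgeR. Unadjusted, the edgeR p-values were 0.0115, 0.0495, 0.126 and 0.0365 in that order. H2-D1 was higher in wild-type by 0.94 in Oligo1 (edgeR, adjusted p = 0.0224) and by 1.15 in Oligo2 (0.0577), against 0.85 within IRO. Ifit3 differed by 1.97 ± 0.56 with an adjusted p of 0.625, and its higher level in wild-type IRO is therefore not shown to be particular to IRO.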

How the data were processed

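Single-cell 3′ RNA was measured in white and gray matter of mice of 24 months. The deposited values were counts of UMIs per gene and cell, which the authors made with Cell Ranger (version 4 in the submitters' processing notes, build mm10), and the cell names came from their deposited annotation. Per the paper's methods, experiments were processed separately with different Cell Ranger releases and UMI limits, integrated and clustered together, and a small Rag1-/- cluster with microglial markers was removed. No doublet caller was run here.

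From the counts, 2 ribosomal RNA genes were left out and 16999 genes listed for both genotypes were used. UMIs were summed per library and cluster. Differences between clusters were taken on log2(CPM + 10) and, like CPM, understate changes of low genes. Genotypes were tested with edgeR 4.0.16 (quasi-likelihood, TMM, filterByExpr, Benjamini-Hochberg) in R 4.3.3, and the interaction on 15 sums with library as a block. DESeq2 1.42.0 was an alternative, and the scripts were tested on simulated data. Exact binomial 95% intervals, counting intervals and the floor of 3 counts cover counting error only. Gene positions are from GENCODE vM21 (GRCm38). Sums of IRO held 196485 to 1378005 UMIs, which limits low genes.

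The members and the 35 gene lists were chosen with earlier results of these data known. Named were the markers, the IRO list, up to 4 members of each list with the largest smaller difference beside those that define it, the 10 counted genes with the largest difference, and called genes (the 10 highest, the 10 lowest and list members). Genes named outside this rule, such as C1qa, Cdkn1a, Klk6 and Il33, were chosen after their values were seen. Ifit3 and Ifit3b, and class I genes, may share reads. Batch numbers were not used to pair the libraries in the main tests, and whether they pair them was not settled. Some results are not reported here.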

Additional observations from a re-analysis of the deposited data

Results flagged for a closer look

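The genotype difference of Ifit2 was larger in IRO than in Oligo1 and Oligo2 by 2.17 on the log2 scale (edgeR interaction test, adjusted p = 5.97e-06). It was 1.5 (adjusted p = 0.228) without wild-type library 2, in which 112 of the 158 Ifit2 UMIs were in 1 cell. For Apod the interaction was -0.71 (edgeR, adjusted p = 0.00120), and it was -0.21 (adjusted p = 0.535) without wild-type library 1. Which causes lie behind these values was not tested.

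IRO cells were also present in gray matter, which no comparison above used. In wild-type gray matter library 2 they made up 0.447% of oligodendrocytes (5 of 1119, exact 95% interval 0.145 to 1.04).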

How the results depend on the processing

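The 43 genes called within IRO became 84 with no filter on low counts, 203 over all genes of the table and 27 without cells of 3 or more immune UMIs, which leaves wild-type library 1 without IRO. Leaving out 1 library gave 27 (without Rag1-/- library 3) to 55 (without wild-type library 2). With the batch number as a replicate block there were 44 calls, 41 of them shared. Deviations from the group means of same-numbered libraries had correlations of -0.152, -0.0812 and -0.0819. Since deviations from a mean of 2 wild-type libraries mirror each other, these values cannot show whether the numbers pair the libraries. The 2 interaction calls became 4 with no filter, 0 without the highest IRO cell of each library and 1 with DESeq2, without cells of 3 or more immune UMIs, without the top 10% of IRO cells or over the genes tested within IRO. Leaving out 1 library gave 1 to 24, the 24 without wild-type library 2. The 10 genes higher in IRO became 17 at 5 CPM, 4 at 100 CPM, 5 without the highest IRO cells, 4 without the top 10%, 5 without cells of 3 or more immune UMIs, 20 at a difference of 0.5 and 125 with no minimum, and 7 to 13 without 1 library. The 0 lower genes became 2 with a pseudocount of 1 CPM, 1 without cells of 3 or more immune UMIs, 9 at 0.5 and 118 with no minimum. Without thinning, 98.7% of IRO cells had an H2-D1 UMI (80.3% thinned) and 8.53% an Ifit3 UMI (3.56% thinned), as means over 5 libraries. No direction reversed in these alternatives. The alternatives that leave out immune-rich or high-scoring cells by share, and those on the size of the difference, were chosen after seeing the data. The causes of these changes were not tested. IRO sums of 17 to 123 cells limit what low genes can show.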

Other observations

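In wild-type gray matter library 1, 1 of 284 oligodendrocytes was an IRO (0.352%, exact 95% interval 0.00891 to 1.95). In the Rag1-/- gray matter library 0 of 1055 were, which allows a share of up to 0.284% by the floor of 3 counts (exact 95% upper limit 0.349%).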
